A study of Mus musculus with 6 samples.

Results

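The Rnf genes encode RING finger proteins, most of which are ubiquitin ligases. On the arrays studied here, 56 genes with 101 probe sets carried a symbol made of Rnf and a number, of 12393 genes and 22690 probe sets in all. Genes were taken by symbol from the platform annotation, and the probe set shown for each was chosen by its mean signal over the 6 arrays, the brightest being kept without regard to group. The same mean set apart 13 dim genes, with a mean signal under 50. These means are given as a description alone.

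The arrays measured transcripts of mouse multiple myeloma cells, malignant plasma cells labelled as coming from bone marrow. Both groups spent 12 h in serum-free medium. For 3 arrays the medium held IGF-1 (insulin-like growth factor 1) at 100 ng/ml, a hormone on which myeloma cells draw for growth and survival, and for 3 control arrays it held none. The labels name no mouse strain, age or cell line, and do not say whether replicates were separate cultures. The p-values below thus rest on the spread between samples that may be technical replicates.

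Ubiquitin is passed from an activating enzyme (E1) to a conjugating enzyme (E2), and a ligase (E3) brings the loaded E2 to its substrate. In RING ligases a zinc-binding fold holds the E2, while RBR ligases, a subgroup with several RING domains in a row, first take ubiquitin onto a cysteine of their own. Depending on the chain built, the substrate goes to the proteasome, is sorted to the lysosome or changes its binding partners. Plasma cells secrete large amounts of antibody and depend on the degradation of misfolded protein from the endoplasmic reticulum, a step in which membrane-anchored RING ligases take part.

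The deposited signals were linear intensities that the authors had scaled to a common trimmed mean, with array medians between 49.96 and 55.4. Precision is limited by how few arrays there are. On the log2 scale, arrays correlated at 0.978 to 0.984 inside a group and at 0.956 to 0.965 across groups. All 7 plasma cell markers on the array were above the signal filter of the test, and 2 of them (Tnfrsf17 and Slamf7) were lower with IGF-1. Their summed signal was 10443 to 10881 in IGF-1 arrays and 11291 to 12216 in control arrays. In contrast, 3 of 3 B cell and 4 of 4 T cell markers were below it. Of 8 neutrophil markers 8 were above the filter, and of 8 macrophage and monocyte markers 6 were, with C1qa and Mrc1 below. None was listed at 0. The summed signal of the macrophage markers was 4662 to 6398 in IGF-1 arrays and 5415 to 7121 in control arrays, and that of the neutrophil markers was 21249 to 23461 in IGF-1 arrays and 23109 to 27309 in control arrays. Among tested markers, Csf1r and Cd14 were lower and Cd68 higher of 6 for macrophages, and Ltf was lower of 8 for neutrophils (limma, threshold 0.05). Of all genes tested, 8.05% were lower and 7.05% higher. The call of Cd14 was lost without IGF-1 1, IGF-1 2, control 2 or control 3 (highest adjusted p 0.132), and those of Cd68 and Ltf without IGF-1 2 (0.0519 and 0.0522). Csf1r lost its call with its tested probe sets averaged (limma adjusted p 0.0898). With scaling by the hybridization control probe sets, Tnfrsf17 and Slamf7 lost theirs (limma adjusted p 0.249 and 0.113), as did Ltf and Cd14. The part of these cells in the Rnf results was not tested. In such bulk samples, fewer cells of a type and less RNA per cell cannot be told apart.

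With IGF-1, 8 Rnf genes fell and 0 rose at the deposited scaling, of 41 that were bright enough to test, whereas 1 fell and 8 rose when scaling went by the hybridization control probe sets. The 8 were Rnf130, Rnf167, Rnf187, Rnf44, Rnf141, Rnf6, Rnf11 and Rnf146, with log2 differences from -0.74 to -0.34. Among all 6895 genes tested, 8.05% fell and 7.05% rose at the deposited scaling, against 19.5% and 0% of the Rnf genes. Calls in either direction there made up 15.1% of all genes and 19.5% of the Rnf genes. With scaling by the hybridization controls, 2.04% of all genes fell and 24.5% rose, beside 1 and 8 of the 41 Rnf genes. The share of Rnf genes that fell was not above that of all genes in every fit. It was 2.44%, beside 4.15%, without IGF-1 2, and 1.79%, beside 2.31%, without a filter. The other fits had the higher share in the Rnf genes. The test was limma with Benjamini-Hochberg adjustment over all 11313 probe sets tested, at an adjusted p of 0.05, and 33 Rnf genes did not pass. At an unadjusted p below 0.05 there were 19 Rnf genes of 41, 15 of them lower and 4 higher, beside 2101 of all 6895 genes tested. All differences are on the scale of log2(signal + 15.57), which understates changes of dim genes.

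The median log2 difference of the 41 genes was -0.12, beside -0.0080 for all genes tested, and 29 of the 41 were negative. The 3 IGF-1 arrays lay entirely below the 3 control arrays in 17 Rnf genes and entirely above them in 5. Such separation was seen in 53.7% of the Rnf genes and in 35.3% of all genes tested. The direction of some single differences depends on the scaling. With scaling by the hybridization controls 14 of the 41 genes turned their sign, none of them among the 8 that fell. The hybridization controls, RNAs added in equal amount to each array, had a level of 194 to 214 in IGF-1 arrays and 228 to 275 in control arrays at the deposited scaling. With arrays set to equal levels of these controls, the median log2 difference was 0.26 for all genes and 0.14 for the Rnf genes, and 2.04% of all genes fell while 24.5% rose. There the 1 Rnf gene that fell was Rnf167, and the 8 that rose were Rnf5, Rnf10, Rnf32, Rnf121, Rnf145, Rnf166, Rnf181 and Rnf185. Relative to the median of all genes, the Rnf median was -0.12 under that scaling and -0.11 as reported.

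**Figure D1:**
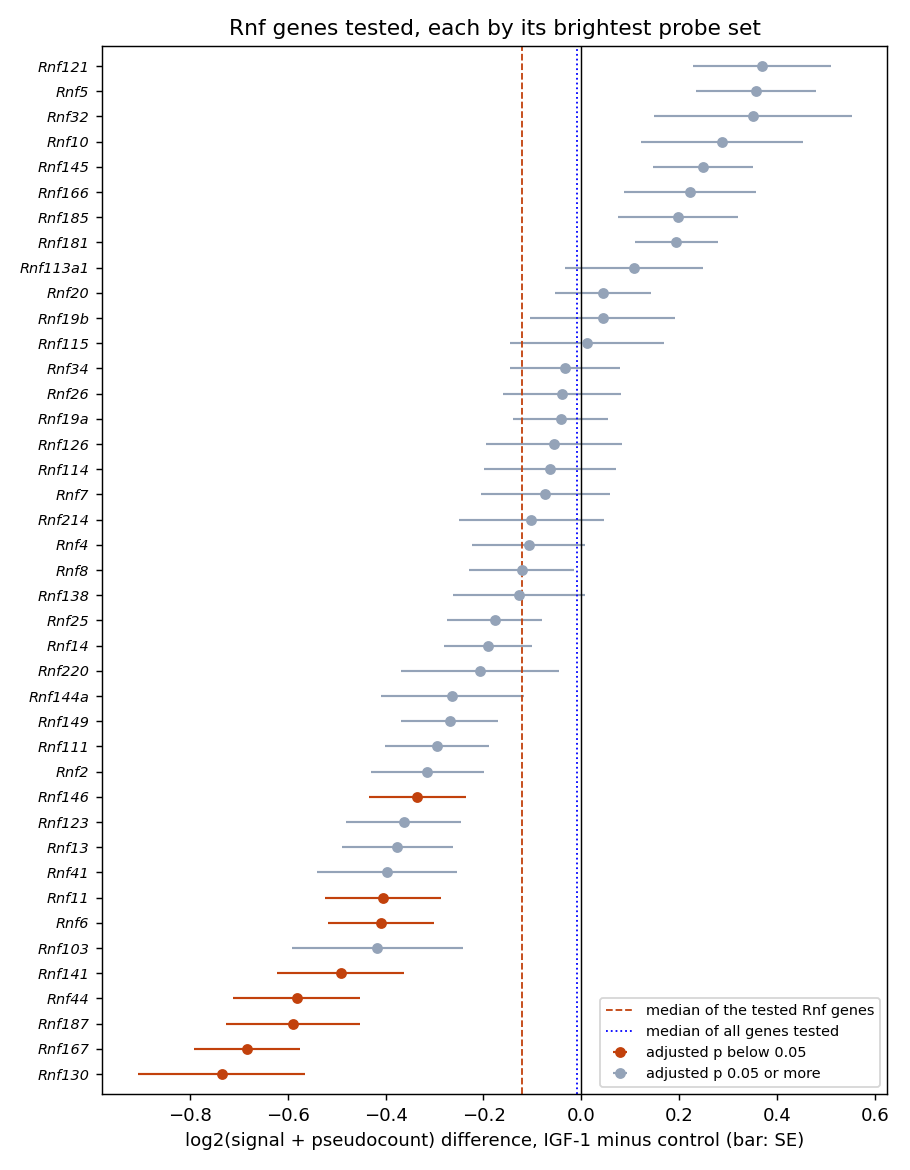
Log2 difference (IGF-1 minus control, horizontal axis, log2 of signal plus pseudocount) of the 41 tested Rnf genes at the deposited scaling, 1 row each, with bars for the standard error. The 8 genes in orange passed the threshold and all lie left of 0, and the dashed line at -0.12 and the dotted line at -0.0080 mark the medians of the Rnf genes and of all genes tested.

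Rnf167 had the smallest p of the family. It encodes a ligase anchored in endosomal and lysosomal membranes. Its signals were 320, 360 and 371 in IGF-1 arrays, against 518, 640 and 561 in control arrays. The groups were well apart, and the highest IGF-1 array stood far below the lowest control array. The mean was 350 ± 26.7 in IGF-1 arrays and 573 ± 61.9 in control arrays (SD, n = 3 each). The log2 difference was -0.68 ± 0.11 (SE, as for every log2 difference here), 1.61-fold lower, with an adjusted p of 0.00344 by limma. Of the 8 calls it alone held without each of the 6 arrays in turn (adjusted p 0.00539 to 0.0175), and it held in every other alternative that measured its probe set (0.00239 to 0.0423 over all).

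Rnf130, the mouse counterpart of Drosophila Goliath and a ligase of the same membrane-anchored kind, had the largest difference. Its signals were 218, 235 and 305 in IGF-1 arrays, against 329, 451 and 525 in control arrays. The control arrays spread widely and control 1 came close to IGF-1 3. The log2 difference was -0.74 ± 0.17 (limma adjusted p = 0.0186, 0.00401 to 0.0695 over the alternatives), and the call was lost without IGF-1 1, IGF-1 2, control 2 or control 3 (highest adjusted p 0.0695).

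Rnf44, a little studied RING protein, gave 332, 263 and 375 in IGF-1 arrays, against 485, 451 and 527 in control arrays. No IGF-1 array reached the control arrays. It fell by 0.58 ± 0.13 on the log2 scale (limma adjusted p = 0.0156, 0.00834 to 0.191 over the alternatives), and of the single arrays only the loss of IGF-1 2 ended the call (adjusted p 0.0514).

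Rnf187 encodes RACO-1, a coactivator of the AP-1 factor Jun. Its brightest probe set gave 1879, 1509 and 1544 in IGF-1 arrays, against 2774, 2726 and 1991 in control arrays, a log2 difference of -0.59 ± 0.14 (limma adjusted p = 0.0186, 0.00555 to 0.0906 over the alternatives). IGF-1 1 and control 3 were the closest arrays. The other bright probe set gave 1848, 1584 and 1678 with IGF-1, against 2242, 2068 and 2033 in controls, and passed too (-0.31 ± 0.09). Rnf187 was the 1 lowered gene in which more than 1 probe set passed. The call of the brightest was lost without IGF-1 2, IGF-1 3, control 1 or control 2 (highest adjusted p 0.0745).

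**Figure D2:**
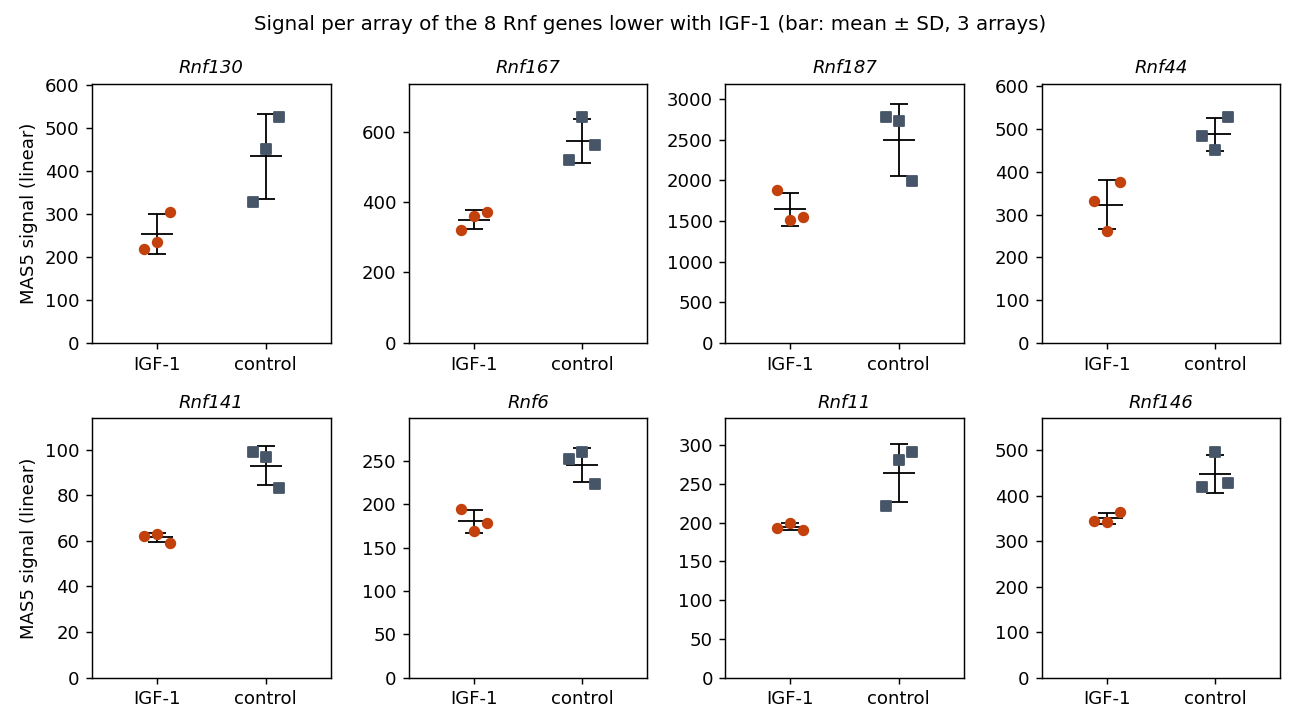
Signal at the deposited scaling (linear, vertical axis from 0) of each array for the 8 Rnf genes that passed the threshold, IGF-1 arrays as orange circles and control arrays as grey squares, with mean ± SD of 3 arrays. In each gene all 3 IGF-1 arrays lie below all 3 control arrays, and relative to their level the groups are nearest for Rnf187, where IGF-1 1 gave 1879 and control 3 gave 1991.

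The other 4 lowered genes had smaller differences and adjusted p-values close to the threshold. Rnf6, a ligase of the androgen receptor in human cells, gave 195, 169 and 178 in IGF-1 arrays, against 252, 260 and 223 in control arrays (-0.41 ± 0.11, limma adjusted p = 0.0304). Rnf141 gave 62.1, 63.2 and 59.2 in IGF-1 arrays, against 98.9, 97.0 and 83.1 in control arrays (-0.49 ± 0.13, limma adjusted p = 0.0305). The IGF-1 arrays of Rnf141 were nearly equal, while control 3 was the nearest control. Rnf11, a small RING protein of the A20 complex that restrains NF-kB, gave 194, 199 and 191 in IGF-1 arrays, against 221, 281 and 291 in control arrays (-0.41 ± 0.12, limma adjusted p = 0.0443). Rnf146, which recognises poly(ADP-ribose) and marks axin for destruction, gave 345, 343 and 365 in IGF-1 arrays, against 419, 496 and 429 in control arrays (-0.34 ± 0.10, limma adjusted p = 0.0465). The groups of these 4 genes did not overlap.

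These 4 calls were lost with several different arrays left out, while the log2 differences stayed negative. With 1 array left out they were -0.47 to -0.37 for Rnf6, -0.56 to -0.45 for Rnf141, -0.52 to -0.34 for Rnf11 and -0.38 to -0.26 for Rnf146. Rnf6 lost its call without IGF-1 2, IGF-1 3, control 1 or control 2 (highest adjusted p 0.106), and Rnf141 without any array but control 3 (0.0942). Rnf11 lost it without any array but control 1 (0.135), and Rnf146 without each of the 6 (0.149). Over all alternatives the adjusted p was 0.0239 to 0.506 for Rnf6, 0.0188 to 0.423 for Rnf141, 0.0166 to 0.532 for Rnf11 and 0.0372 to 0.789 for Rnf146. The number of Rnf genes that fell was 1 without IGF-1 2, 2 without control 2, 3 without IGF-1 3, 4 without control 1, 5 without IGF-1 1 and 6 without control 3. The count over all genes also dropped, for example to 534 without IGF-1 2, beside 1041 with all arrays. As a share, 2.44% of the Rnf genes and 4.15% of all genes fell without IGF-1 2, and 4.88% and 4.34% without control 2. The shares were 7.32% and 5.44% without IGF-1 3, and 9.76% and 7.01% without control 1. They were 12.2% and 5.44% without IGF-1 1, and 14.6% and 5.22% without control 3.

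Probe sets of 1 gene did not always move together. Of the 8 lowered genes, 5 had several tested probe sets, 15 tested probe sets belonged to the 8 genes, and 12 of these were negative. Over the whole family 64 probe sets were tested, of which 9 fell and 0 rose (14.1% lower, beside 8.28% lower and 6.82% higher of all probe sets tested). The second probe set of Rnf6 was lower without passing (-0.28 ± 0.12, limma adjusted p = 0.15), as was the dimmest tested of Rnf146 (-0.29 ± 0.12, limma adjusted p = 0.11). For Rnf11, the second probe set gave 166, 198 and 187 with IGF-1, against 184, 174 and 189 in controls, with overlapping groups and a difference of 0.0080 ± 0.11. The other 2 tested probe sets of Rnf141 had differences of 0.029 and 0.00098, and the middle one of Rnf146 -0.030. Of 18 Rnf genes with several tested probe sets, 11 had 1 sign throughout and 7 had both signs. With probe sets of a gene averaged, Rnf11, Rnf141 and Rnf146 did not pass, while Rnf121 rose.

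**Figure D3:**
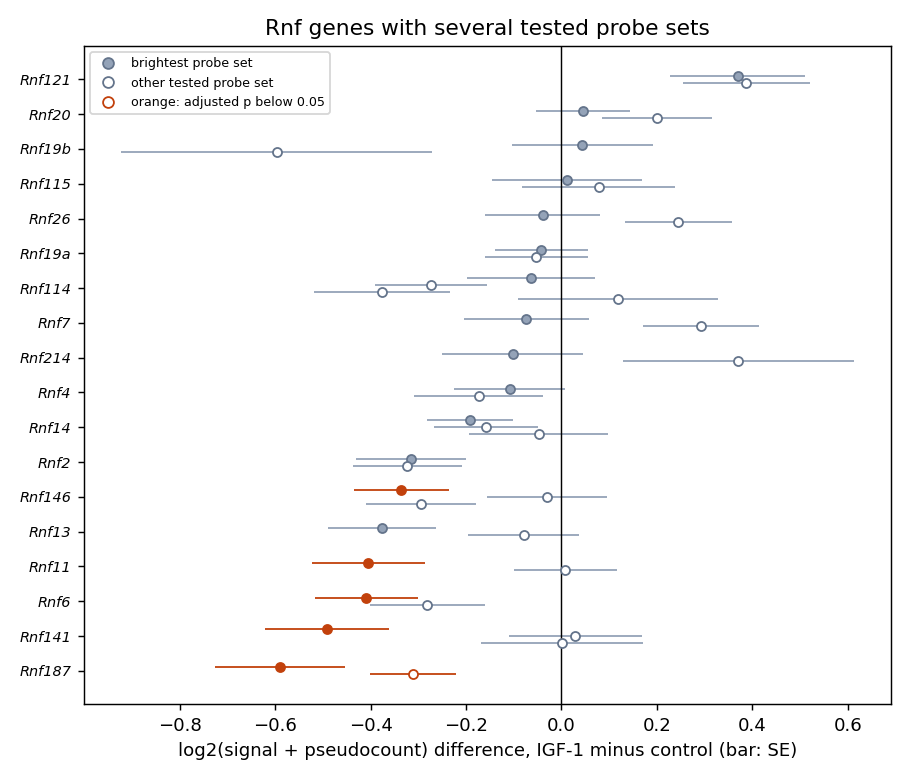
Log2 difference (IGF-1 minus control at the deposited scaling, horizontal axis) of every tested probe set of the 18 Rnf genes that had more than 1, with standard errors, filled for the brightest and open for the others. In orange are the probe sets past the threshold, which make up both of Rnf187 and only the brightest of Rnf6, Rnf11, Rnf141 and Rnf146.

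Of the lowered genes, the stretches upstream of 3 are shown as examples that hold matches to common promoter motifs. Windows of Rnf130, Rnf146 and Rnf187, not shown, hold matches too. RefSeq promoter sequences of build GRCm38.p6 matched 47 of the 56 Rnf genes and 7 of the 8 that fell. Both strands were searched for the letters of 7 common motifs. The GC box of Sp1 was searched as GGGCGG. The motif of ETS factors was searched as CCGGAAG. The box bound by NF-Y was searched as CCAAT. The E-box of Myc and related proteins was searched as CACGTG. The motif of FOXO factors was searched as GTAAACA. The cAMP response element was searched as TGACGTCA. The motif of the factor NRF1 was searched as GCGCATG. The window is the 250 bases before the annotated start. Capitals mark matches of these motifs on either strand, and neighbouring or overlapping matches run together.
Rnf167 (chr11:70646985-70647234, plus strand): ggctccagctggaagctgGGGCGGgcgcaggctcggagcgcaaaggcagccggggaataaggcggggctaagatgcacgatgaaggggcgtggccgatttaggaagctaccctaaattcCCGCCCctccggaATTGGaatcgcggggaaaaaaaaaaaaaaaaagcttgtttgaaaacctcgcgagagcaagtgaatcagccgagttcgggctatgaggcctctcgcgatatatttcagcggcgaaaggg
Rnf44 (chr13:54693961-54694210, minus strand, read on the gene's strand): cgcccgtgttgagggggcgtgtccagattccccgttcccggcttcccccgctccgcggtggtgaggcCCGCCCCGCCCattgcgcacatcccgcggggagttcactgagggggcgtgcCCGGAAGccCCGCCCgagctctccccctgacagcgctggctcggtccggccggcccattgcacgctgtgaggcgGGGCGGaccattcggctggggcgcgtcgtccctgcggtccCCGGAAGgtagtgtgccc
Rnf6 (chr5:146220902-146221151, minus strand, read on the gene's strand): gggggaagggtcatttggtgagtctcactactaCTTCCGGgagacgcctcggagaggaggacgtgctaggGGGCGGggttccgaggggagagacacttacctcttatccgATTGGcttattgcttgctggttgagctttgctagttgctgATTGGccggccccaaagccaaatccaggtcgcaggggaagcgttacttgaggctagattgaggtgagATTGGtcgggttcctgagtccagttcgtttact

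In Rnf167 the capitals are 2 GC boxes and, 118 bases before the start, a CCAAT box. In the Rnf44 window they are 4 GC boxes, of which 2 overlap, and ETS motifs 132 and 18 bases before the start. The Rnf6 window holds an ETS motif 217 bases before the start, a GC box and 3 CCAAT boxes. The 7 genes had 11 windows, since some have several starts. The window of Rnf141 and another window of Rnf6 held no match to any of the motifs. GC boxes stood in 63.6% of the 11 windows, 68.4% of the 38 windows of the other tested Rnf genes, 59.3% of the windows of all genes tested and 32.7% of all promoters. ETS motifs stood in 27.3%, 15.8%, 15.2% and 6.91% in the same order, and CCAAT boxes in 54.5%, 31.6%, 34.9% and 33.8%. The E-box was in 1 of the 11 windows (9.09%, Rnf44, its other start), beside 5.26%, 8.67% and 6.02% in the other sets, in the same order. The FOXO letters were in 0, beside 7.89%, 2.12% and 3.17%. Those of the cAMP response element were in 0, beside 2.63%, 2.57% and 1.55%. The NRF1 letters were in 0, beside 5.26%, 6.55% and 3.24%. By gene, the ETS motifs of the 11 windows belong to Rnf44 and Rnf6, and the CCAAT boxes to Rnf146, Rnf167, Rnf44 and Rnf6. Because 2 of the 3 Rnf6 windows overlap, the same sites of Rnf6 count in both. A match of letters is a description of these windows.

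Rnf genes of the membranes had differences of both signs, but at the deposited scaling only falls passed the threshold. Of 15 genes listed as membrane-anchored, 10 were tested, 4 with a positive and 6 with a negative difference (median -0.15). Of the 10, 2 fell (Rnf130 and Rnf167), 0 rose and 8 did not pass, beside 8.05% lower and 7.05% higher of all genes tested. A share of the membrane-anchored genes carries a protease-associated domain in front of the membrane span and the RING. That subgroup was assembled after its values were seen and has no test. Its 4 tested genes were Rnf13, Rnf130, Rnf149 and Rnf167 (Rnf43 and Rnf128 were dim), and in each the 3 IGF-1 arrays lay below the 3 control arrays, with log2 differences of -0.38, -0.74, -0.27 and -0.68 at the deposited scaling. The IGF-1 arrays also lay entirely below the control arrays in 17 of the 41 tested Rnf genes and in 18.2% of all genes tested. Rnf13, which acts in the endoplasmic reticulum stress response, gave 273, 301 and 294 in IGF-1 arrays, against 365, 442 and 340 in control arrays. It missed the threshold narrowly (limma adjusted p = 0.0503, 0.041 to 0.623 over the alternatives) and passed in 7 alternatives, of which 1 left out an array (control 3, 0.0434). Its second probe set overlapped between groups (-0.079 ± 0.12). Rnf149 gave 435, 417 and 459 with IGF-1, against 522, 582 and 489 in controls (-0.27 ± 0.10, limma adjusted p = 0.094).

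The other 6 tested genes of the membrane-anchored list were Rnf5, Rnf121, Rnf145 and Rnf185, with positive differences, and Rnf26 and Rnf103, with negative ones, and none of these passed the threshold. Rnf5, which marks misfolded membrane proteins for degradation, gave 475, 463 and 519 in IGF-1 arrays, against 447, 323 and 366 in control arrays (0.36 ± 0.12, limma adjusted p = 0.076, and 0.0243 without control 1). IGF-1 arrays stood above all controls, with control 1 close to them. Rnf121 gave 111, 135 and 137 with IGF-1, against 103, 78.9 and 106 in controls (0.37 ± 0.14, limma adjusted p = 0.10), and its second probe set had a like difference (0.39 ± 0.13, limma adjusted p = 0.078). Rnf145, a sterol-regulated ligase of HMG-CoA reductase, gave 893, 779 and 789 in IGF-1 arrays, against 769, 649 and 650 in control arrays (0.25 ± 0.10, limma adjusted p = 0.13). The groups of Rnf145 were barely apart, with IGF-1 2 just above control 1. Rnf185, a relative of Rnf5, had 0.20 ± 0.12 (limma adjusted p = 0.32), whereas Rnf103, another ligase of the endoplasmic reticulum, had -0.42 ± 0.17 with overlapping groups (limma adjusted p = 0.14). Rnf26 had -0.040 ± 0.12 by its brightest probe set and 0.24 ± 0.11 by the other (limma adjusted p = 0.86 and 0.17). Rnf5, Rnf121, Rnf145 and Rnf185 were among the genes that passed with scaling by the hybridization controls, where 24.5% of all genes rose.

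Of 7 tested Rnf genes listed for chromatin and DNA repair, 0 rose and 0 fell, beside 7.05% and 8.05% of all genes tested. Their median was -0.12. At an unadjusted p below 0.05 there were Rnf2 and Rnf111 of the 7, beside 2101 of all 6895 genes tested. Rnf2, the catalytic subunit of Polycomb repressive complex 1 that puts ubiquitin on histone H2A, gave 291, 256 and 231 in IGF-1 arrays, against 298, 357 and 323 in control arrays (-0.31 ± 0.12, limma adjusted p = 0.0935). Its second probe set read the same way, with 232, 228 and 220 in IGF-1 arrays, against 274, 335 and 258 in control arrays (-0.32 ± 0.11, limma adjusted p = 0.085). Both probe sets separated the groups without passing. Rnf111 (Arkadia), a ligase that removes inhibitors of TGF-beta signalling, had -0.29 ± 0.11 (limma adjusted p = 0.091). The DNA break ligase Rnf8 had -0.12 ± 0.11, the SUMO-targeted ligase Rnf4 -0.11 ± 0.12, the repair ligase Rnf138 -0.13 ± 0.13 and Rnf20, which puts ubiquitin on histone H2B, 0.045 ± 0.098.

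The RBR ligases had 4 tested members, of which 0 rose and 0 fell (median -0.12, and 0 at an unadjusted p below 0.05). Of all genes tested, 7.05% rose and 8.05% fell, and 2101 of 6895 had an unadjusted p below 0.05. Rnf14, a coactivator of the androgen receptor in human cells, gave 515, 485 and 522 in IGF-1 arrays, against 609, 587 and 549 in control arrays (-0.19 ± 0.09, limma adjusted p = 0.18). The groups were apart by a narrow margin in this probe set. For Rnf19b, a ligase known from natural killer cells, the 2 tested probe sets had opposite signs (0.044 ± 0.15 and -0.60 ± 0.33), and neither passed.

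Of the remaining 29 genes, 20 were tested, of which 6 fell, 0 rose and 14 did not pass, with a median of -0.14. Of all genes tested, 8.05% fell and 7.05% rose. Rnf123, which with its partner marks the cell cycle inhibitor p27 for degradation, gave 156, 121 and 130 in IGF-1 arrays, against 178, 173 and 183 in control arrays (-0.36 ± 0.12, limma adjusted p = 0.065, and 0.0395 without IGF-1 1). Every IGF-1 array was lower than every control array. Rnf41 (Nrdp1), a ligase of the growth factor receptor ErbB3, had -0.40 ± 0.14 (limma adjusted p = 0.090), and Rnf181 had 0.19 ± 0.08 (limma adjusted p = 0.15). Rnf10, which marks ribosomal proteins, had 0.29 ± 0.17 with overlapping groups, and Rnf114 and Rnf7, a subunit of cullin ligases, had -0.064 ± 0.13 and -0.073 ± 0.13. The second probe set of Rnf7 had 0.29 ± 0.12 (limma adjusted p = 0.13). The other tested probe sets of Rnf114 had -0.27 ± 0.12, -0.38 ± 0.14 and, in the dimmest, 0.12 ± 0.21 (limma adjusted p = 0.15, 0.10 and 0.75). The 22 tested Rnf genes with an unadjusted p of 0.05 or more had differences from -0.26 to 0.35, 14 of them negative. Besides those named, these were Rnf19a, Rnf25, Rnf26, Rnf32, Rnf34, Rnf113a1, Rnf115, Rnf126, Rnf144a, Rnf166, Rnf214 and Rnf220.

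The dim Rnf genes gave no test. The 13 were Rnf17, Rnf43, Rnf112, Rnf128, Rnf135, Rnf138rt1, Rnf144b, Rnf151, Rnf157, Rnf183, Rnf186, Rnf207 and Rnf227, with mean signals from 1.89 for Rnf43, a brake on Wnt receptors, to 45.0 for Rnf227. The nearest genes on either side of the limit of 50 were Rnf227 at 45.0 and Rnf208 at 50.9. Rnf208 and Rnf225 (51.7) were above that limit but below the filter of the test, a mean signal of 53.6, and so were not tested either. Rnf208 averaged 56.0 ± 5.81 in IGF-1 arrays and 45.8 ± 8.16 in control arrays (SD, n = 3 each), and Rnf225 averaged 44.3 ± 3.86 in IGF-1 arrays and 59.2 ± 15.4 in control arrays. Both overlapped between groups. Members of the family without a probe set of their own symbol were not analysed here.

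Other genes of ubiquitin transfer are given for comparison by the same test. The counts stand beside 7.05% higher and 8.05% lower of all genes tested. Of 29 tested E1 and E2 enzymes, 3 rose, 2 fell and 24 did not pass (median 0.045). Cdc34, the E2 of cullin ligases, rose by 0.72 ± 0.10, and Ube2b, an E2 of Rnf20, fell by 0.76 ± 0.11 (limma adjusted p = 0.0017 and 0.0020). Both calls held without each array in turn. Among 43 tested RING and U-box ligases of other names, 1 rose, 6 fell and 36 did not pass (median -0.086). Trim25, a ligase of antiviral signalling, fell by 0.76 ± 0.09, and Uhrf1, which maintains DNA methylation, rose by 0.99 ± 0.15. Of 13 tested HECT ligases, which take ubiquitin onto their own cysteine, 2 fell, 0 rose and 11 did not pass (median -0.050), led by Herc4 (-0.79 ± 0.10). Of 35 tested deubiquitinases, which remove ubiquitin, 1 rose, 2 fell and 32 did not pass (median -0.091), with Otulin, an enzyme specific for linear chains, at -0.69 ± 0.13 and Usp15 at -0.73 ± 0.13 (limma adjusted p = 0.0065, but 0.0528 with scaling by the hybridization controls). In 12 tested scaffold subunits of cullin ligases 0 rose and 0 fell (limma, median -0.076).

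Partners of single Rnf proteins were counted likewise, beside the same 7.05% higher and 8.05% lower of all genes tested. Of 10 tested members of Polycomb complex 1 other than Rnf2, 0 rose and 0 fell by limma (median 0.099). Ring1, the paralog of Rnf2, gave 0.46 ± 0.15 (limma adjusted p = 0.062), opposite in sign to Rnf2. Bmi1, a core partner of both, gave -0.28 ± 0.11 (limma adjusted p = 0.13, and 0.0424 without control 3). Kdm2b, another member of this list, gave 0.46 ± 0.16 (limma adjusted p = 0.073) and passed in 3 alternatives. Of 10 tested genes of ubiquitin signalling at DNA breaks, Rnf8 included, 0 rose and 0 fell (median -0.11), with the smallest p for Ube2n, the E2 of Rnf8, at 0.35 ± 0.13 (limma adjusted p = 0.089). Of 4 tested genes of the linear ubiquitin system 1 fell, Otulin, and 0 rose (median -0.23).

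**Figure D4:**
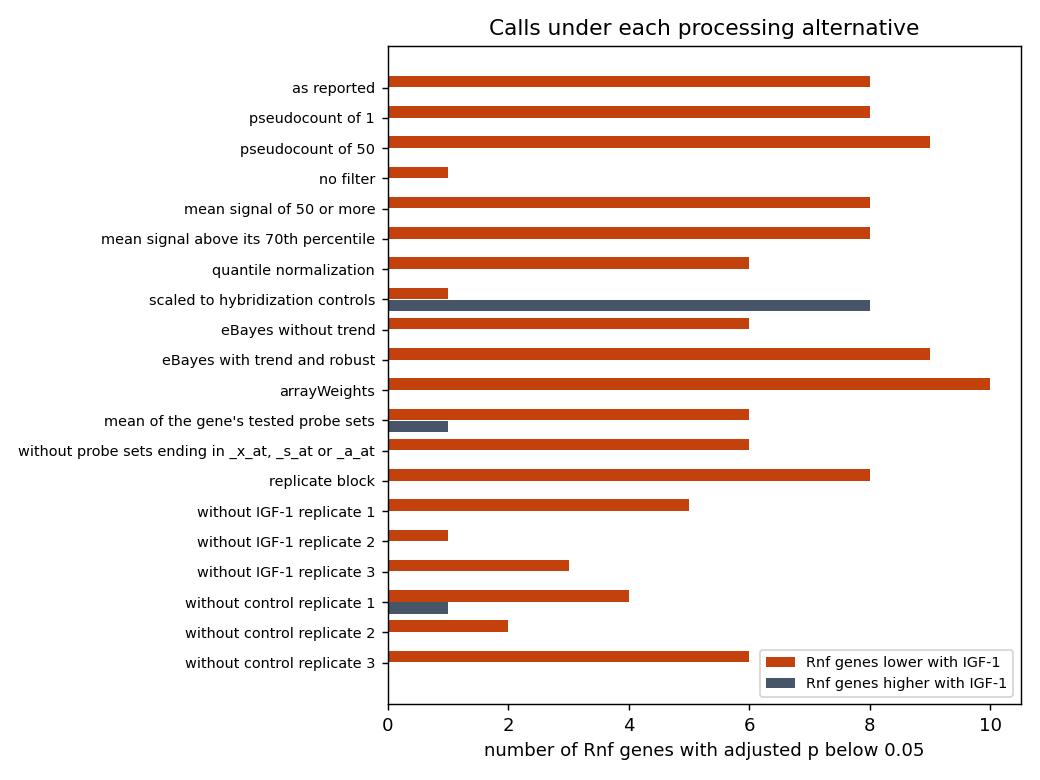
Number of Rnf genes past the threshold (horizontal axis) under the reported settings and each alternative, orange for lower and grey for higher with IGF-1. The lower count is 8 as reported, 1 without a filter, without IGF-1 2 or with scaling by the hybridization controls, and up to 10 with array weights. The higher count is above 1 only with scaling by the hybridization controls (8), where 24.5% of all genes tested rose.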

How the data were processed

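Transcripts of mouse myeloma cells were measured on 6 one-colour Affymetrix arrays, 3 with IGF-1 and 3 without. The deposited values are linear intensities, a single number for every probe set on an array, which the authors obtained with GCOS and MAS5, per the submitters' processing notes (versions and scaling target not given in the sources used here). MAS5 detection calls were not used here. From the values, array means were equal once 2% of the probe sets were trimmed at either end. Such scaling takes total RNA output as equal between groups.

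Of 22690 probe sets, 64 controls were left out, 20380 carried 1 symbol, 691 several and 1555 were unlisted, and those with several named no gene. Signals were tested as log2(signal + 15.57), the 25th percentile of all signals. Probe sets with a mean signal above 53.6, the median, were kept (11313 probe sets, 6895 genes). limma 3.58.1 in R 4.3.3 (lmFit, eBayes with an intensity trend, two-sided) compared IGF-1 with control, with Benjamini-Hochberg adjustment over all probe sets tested and a threshold of 0.05. The fit was tested on simulated data. Every member past the threshold or with a known role was named, of the companion lists up to 4 genes. The members, lists and rules were chosen with earlier results of these data known. Alternatives covered the pseudocount, filter, normalization, eBayes settings, array weights, the choice of probe sets, blocking on replicate number and each array left out. Tables and plots were made with Python 3.11.15, pandas 2.3.3 and matplotlib 3.10.9.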

Additional observations from a re-analysis of the deposited data

How the results depend on the processing

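Rnf167 kept its direction and call under every alternative that measured its probe set. With 1 array left out, 1 to 6 Rnf genes fell and 0 to 1 rose (Rnf5, without control 1), the Rnf median was -0.19 to -0.12, and 534 to 898 genes were called in all, beside 1041. Without a filter 1 Rnf gene fell (1.79%, beside 2.31% of all genes), the Rnf median was -0.10 and 573 genes were called. With arrays scaled by hybridization controls 1 Rnf gene fell and 8 rose, beside 2.04% and 24.5% of all genes. There the Rnf median was 0.14, and 1832 genes were called, of which 7.7% were lower (53.3% as reported). With the mean of probe sets 1 Rnf gene rose (Rnf121) and the median was -0.14. The median was -0.10 with a pseudocount of 50, -0.15 with a filter at the 70th percentile, -0.089 with quantile normalization and -0.19 without probe sets ending in _x_at, _s_at or _a_at. The Rnf median lay below the median of all genes in each of these fits. Alternatives other than no filter, that scaling and the left-out arrays gave 6 to 10 Rnf genes that fell.

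None of the 8 lowered genes turned its sign under any of these alternatives. Of all 41 tested Rnf genes, 14 turned with scaling to the hybridization controls, 4 with the mean of probe sets, 2 without probe sets ending in _x_at, _s_at or _a_at, 1 with array weights and 1 to 4 with 1 array left out. Among the 29 Rnf genes followed singly and the companion genes, those that turned with scaling to the hybridization controls were Rnf114 (0.22), Rnf138 (0.13), Rnf14 (0.092), Rnf149 (0.012), Rnf4 (0.16), Rnf7 (0.20), Rnf8 (0.14) and Bmi1 (0.0066), a scaling that moves every gene. With the mean of probe sets they were Rnf19b (-0.28) and Rnf7 (0.11), and without probe sets ending in _x_at, _s_at or _a_at Rnf19b (-0.60). Without IGF-1 1 they were Rnf114 (0.090) and Rnf7 (0.059), without IGF-1 2 Rnf19b (-0.0032), and without control 1 Rnf19b (-0.039). The cause of the other changes was not tested.

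Groups share replicate numbers, and the labels do not say whether same-numbered samples were paired. The reported test treated them as unpaired. Same-numbered arrays deviated from their group means with correlations of 0.12, -0.03 and 0.13, and 4 of 6 arrays correlated best with their own number. With the replicate number as a block 8 Rnf genes fell and 0 rose, where Rnf146 lost its call and Rnf13 gained one. The median was -0.12 and 1067 genes were called. Signals near the background limit the dim genes, which have no test here.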
